A study of Mus musculus with 8 samples.

Results

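The MHC class I antigen presentation genes are 10 genes chosen by name for their part in the pathway, out of the 53697 genes of the count table. They are H2-K1, H2-D1, B2m, Tap1, Tap2, Tapbp, Psmb8, Psmb9, Psmb10 and Nlrc5. The choice was made with earlier results of these data known. All 10 passed the filter on low counts, which left 18322 genes in the fit. The libraries came from mammary tumors of MMTV-PyMT mice on a C57BL/6 background, in which the MMTV promoter drives the polyoma middle T oncogene in mammary epithelium. All mice carried this transgene and a reporter of the Notch ligand Dll1. In mice 1 and 2 it was a GFP knock-in, and in mice 3 and 4 an mCherry BAC transgene (GFP mice and mCh mice below). Tumor cells depleted of CD45+, CD31+ and Ter119+ cells were sorted by the reporter. From every mouse there was a library of Dll1- and a library of Dll1+ cells, which makes 8 libraries in 4 pairs. No treatment is named for these mice, and their age is not given in the labels.

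Class I molecules show peptides from inside the cell to CD8+ T cells and natural killer cells. The proteasome cuts proteins into peptides, the TAP transporter carries these into the endoplasmic reticulum, and there tapasin holds the transporter close to new heavy chains until a peptide is bound and the complex of heavy chain, beta-2-microglobulin and peptide leaves for the surface. Interferon gamma is known to raise most of these genes together, through Irf1 and the class I transactivator Nlrc5, and tumors are known to lower them to evade T cells.

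Of the 10 genes, 7 lie on chromosome 17 (GRCm38, GENCODE annotation). Psmb9, Tap1, Psmb8 and Tap2 sit side by side at chr17:34181987-34216321, a stretch of 34.3 kb with no other protein-coding gene. H2-K1 lies at chr17:33996017-34000347 on the minus strand and H2-D1 at chr17:35262730-35267499 on the plus strand, with Tapbp at chr17:33915899-33929292. Dll1 lies on the same chromosome at chr17:15367354-15376872, 18.55 to 19.90 Mb from these 7 genes. B2m lies on chromosome 2, and Psmb10 and Nlrc5 lie on chromosome 8.

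RefSeq promoter windows (GRCm38.p6, 250 bases before to 50 after a gene's start) were found for 8 of the 10 genes, and not for Tap2 and Nlrc5. The stretches below are shown because the heavy chains H2-K1 and H2-D1 carry nearly the same bases upstream, identical at 79 of 84 positions, while B2m, which makes the other chain of the same complex, does not. They are written 5′ to 3′ on the gene's strand. Capitals mark matches, on either strand, to the letters GGGATTCCC, GAANNGAAA, TGACGC and GATTGG, in which N is any base. The H2-K1 stretch is chr17:34000380-34000463 on the minus strand, the H2-D1 stretch is chr17:35262918-35263001 on the plus strand, and the B2m stretch is chr2:122147554-122147641 on the plus strand.
H2-K1: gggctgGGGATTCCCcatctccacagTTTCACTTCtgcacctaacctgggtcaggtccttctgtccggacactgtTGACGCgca
H2-D1: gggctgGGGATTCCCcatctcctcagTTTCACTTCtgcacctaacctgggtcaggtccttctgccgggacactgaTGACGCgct
B2m: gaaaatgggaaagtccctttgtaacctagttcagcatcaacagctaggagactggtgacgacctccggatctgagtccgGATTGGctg

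The letters GGGATTCCC, of the kind bound by NF-kB, stood in the windows of H2-K1 and H2-D1 and in 0.414% of the 27025 genes with a window. GAANNGAAA, of the kind bound by interferon regulatory factors, stood in the same 2 members and in 8.68% of all genes, and TGACGC in the same 2 members and in 8.37%. GATTGG, the inverted CCAAT box, stood in 5 of 8 members (H2-K1, H2-D1, B2m, Tap1 and Psmb9) and in 18.2% of all genes. The Tap1 and Psmb9 windows share 275 of their 300 bases, as these genes start back to back on opposite strands, so their GATTGG match is 1 site. A match is a description of the letters, and binding was not measured here. A window without a match, as that of B2m for the NF-kB letters, may still hold other letters of the kind bound by NF-kB. Such variants were not counted.

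Total counts per library ranged from 27301396 to 123907626, so that 3 counts corresponded to 0.024 to 0.105 CPM (the count per 1 M counts of a library, after TMM scaling), below every member in every library. Dll1 itself was at 7.61, 13.7, 34.7 and 50.3 CPM in the Dll1- libraries of mice 1 to 4 and at 87.5, 138, 203 and 250.2 CPM in the Dll1+ libraries, which follows the labels. The epithelial marker Epcam was at 899 to 982 CPM in Dll1- and at 1098 to 1239.5 CPM in Dll1+ libraries. Ptprc, the gene of CD45, was at 2.88 to 4.39 CPM in GFP and 5.32 to 12.7 CPM in mCh libraries, and Pecam1, the gene of CD31, at 13.7 to 14.3 CPM and 24.1 to 98.2 CPM, so that transcripts of the depleted cell types were detected in all libraries, at higher levels in mCh mice. The summed level of 15 pan-leukocyte and macrophage markers was 116 to 151 CPM in GFP libraries, 706 and 736 CPM in mCh Dll1- libraries and 317 and 324 CPM in mCh Dll1+ libraries.

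Per kilobase of their longest coding transcript, the members spanned a wide range of levels. The heavy chains and B2m were highest, with medians over 8 libraries of 416 CPM per kb for H2-K1, 353 for H2-D1 and 314 for B2m. Their ranges, 385 to 838, 304 to 634 and 206 to 741 CPM per kb, overlapped. Tapbp followed at a median of 87.4 CPM per kb, then Psmb8 at 39.6, Tap2 at 29.7, Psmb10 at 27.9, Tap1 at 19.1 and Psmb9 at 11.1. The ranges of Psmb8, Tap2 and Psmb10 overlapped, and so did those of Tap1 and Psmb9. Nlrc5, a regulator, was lowest at a median of 1.20 CPM per kb and a range of 0.636 to 2.08, below every library's value for the other members.

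The question of the design was whether Dll1+ tumor cells differ from Dll1- tumor cells of the same mouse. None of the 10 genes was called over the 4 mice at an adjusted p under 0.05 (edgeR's quasi-likelihood test with the mouse as a block), where 14% of all tested genes were called. At an unadjusted p under 0.05 there was 1 member, Tapbp, beside 5936 of the 18322 tested genes. DESeq2 called 0 of 10, beside 26.4% of the genes it gave an adjusted p. The log2 fold changes of the members ran from -0.27 for Nlrc5 to 0.24 for Tapbp, with a median of 0.13 beside -0.00068 over all tested genes. In bulk RNA, fewer cells of a type and less RNA per cell cannot be told apart.

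The 4 mice did not move alike. H2-K1, H2-D1, B2m, Tap1, Tap2, Tapbp, Psmb8 and Psmb10 stood higher in the Dll1+ library of mice 1, 2 and 3 and lower in that of mouse 4, a pattern of 8 of the 10 members and 4.66% of all tested genes. The pattern was picked once the members' values were known, and these genes moved together, so both shares are a description. In mouse 4 the log2 differences of these genes ran from -0.52 for B2m to near 0, at -0.023 for Psmb8 and -0.012 for H2-K1. Higher in both GFP mice were 9 of 10 members, beside 34% of all tested genes. Higher in all 4 mice were 0 of 10 members, beside 21.4% of all tested genes. Without mouse 4, 2 members were called over the remaining 3 mice, Tapbp at a log2 fold change of 0.34 (adjusted p = 0.0261) and B2m at 0.32 (adjusted p = 0.0421), and 13.1% of all genes were called in that fit.

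**Figure D1:**
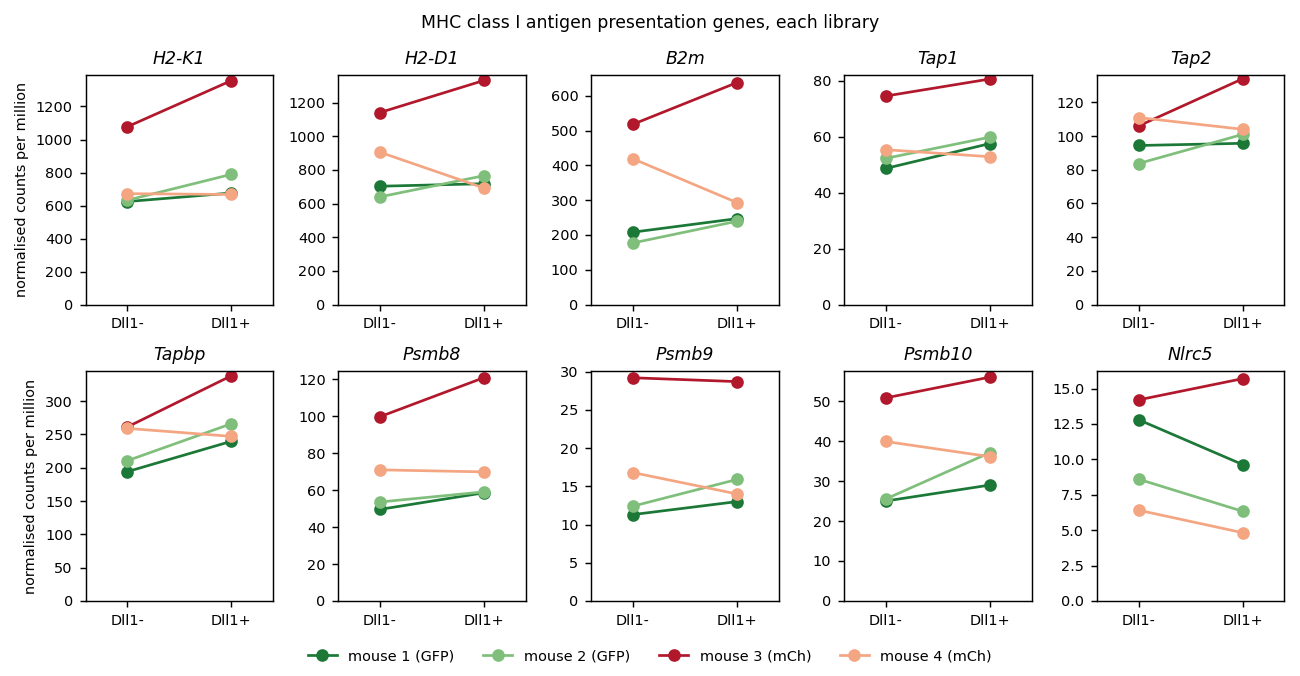
Level in CPM (y axis, from 0, a scale of its own for each gene) of the 10 MHC class I antigen presentation genes in Dll1- and Dll1+ libraries (x axis). Each line joins both libraries of 1 mouse, and for 8 genes the lines of mice 1, 2 and 3 go up and that of mouse 4 goes down.

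H2-K1 and H2-D1 encode the classical class I heavy chains, which bind the peptide. H2-K1 was at 624, 632, 1077 and 672 CPM in the Dll1- libraries of mice 1 to 4 and at 676, 789, 1357 and 667 CPM in the Dll1+ libraries. Both groups overlapped, since the mice differed more from each other than the cells did within a mouse. The log2 fold change was 0.19 ± 0.089 (SE, n = 4 pairs), with a 95% confidence interval of -0.029 to 0.41 and an adjusted p of 0.202 (edgeR). H2-D1 was at 703, 640, 1141 and 905 CPM in Dll1- and 718, 766, 1332 and 692 CPM in Dll1+ libraries. In mouse 4 it was lower by 0.39 on the log2 scale in Dll1+ cells, which offset the other mice, and the fitted log2 fold change was 0.032 ± 0.12 (interval -0.27 to 0.34, adjusted p = 0.878). Without mouse 2 or without mouse 3 it was below 0, at -0.041 and -0.032. Of the 31-base words in the protein-coding transcripts of H2-K1, 23.3% also occur in transcripts of other genes (16.9% in H2-D1), and of those of H2-D1 27.5% do (12.9% in H2-K1), so that the division of reads between heavy chain genes is uncertain.

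B2m encodes beta-2-microglobulin, the light chain that every class I heavy chain needs. It was at 208, 177, 518 and 419 CPM in the Dll1- libraries of mice 1 to 4 and at 247, 239.5, 638 and 293 CPM in the Dll1+ libraries. The groups overlapped across mice. The within-mouse log2 differences were 0.25, 0.44, 0.30 and -0.52, the widest spread among the members, and the fitted log2 fold change was 0.12 ± 0.17 (interval -0.30 to 0.53, adjusted p = 0.664). B2m lies wholly inside the annotated span of Patl2 on the other strand, but their transcripts share none of the 31-base words of B2m.

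Tap1 and Tap2 form the peptide transporter, and Tapbp encodes tapasin. Tap1 was at 48.7, 52.3, 74.6 and 55.4 CPM in Dll1- and 57.6, 59.9, 80.7 and 52.9 CPM in Dll1+ libraries. Tap2 was at 94.4, 83.7, 106 and 111 CPM in Dll1- and 95.7, 101, 134 and 104 CPM in Dll1+ libraries. The Dll1- and Dll1+ values of both genes overlapped. Their fitted log2 fold changes were nearly equal, 0.12 ± 0.068 (adjusted p = 0.27) and 0.13 ± 0.086 (adjusted p = 0.324). Tapbp was at 194, 210.4, 261 and 259 CPM in Dll1- and 239.6, 266, 338 and 247 CPM in Dll1+ libraries. It had the highest log2 fold change of the 10 genes, 0.24 ± 0.091 (interval 0.016 to 0.46), or 1.18-fold, and the adjusted p was 0.134. Its differences in mice 1, 2 and 3 were alike, at 0.31, 0.34 and 0.37, and that of mouse 4 was -0.069. Of the 31-base words of Tapbp 23.7%, of Tap2 15.5% and of Tap1 7.7% occur on the opposite strand in transcripts of other genes, and whether the reads were mapped by strand is not given in the sources used here.

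Psmb8, Psmb9 and Psmb10 are the catalytic subunits of the immunoproteasome, which take the places of Psmb5, Psmb6 and Psmb7 and shift the cut sites toward peptides that class I can bind. Psmb8 was at 49.6, 53.6, 99.8 and 71 CPM in Dll1- and 58.6, 59.1, 121 and 69.9 CPM in Dll1+ libraries. Its log2 fold change was 0.16 ± 0.066 (interval -0.0036 to 0.32, adjusted p = 0.161). Psmb10 was at 25, 25.5, 50.8 and 39.9 CPM in Dll1- and 29, 37.1, 56 and 36.1 CPM in Dll1+ libraries, a log2 fold change of 0.19 ± 0.11 (adjusted p = 0.301). Psmb9 differed from both in mouse 3. It was at 11.3, 12.4, 29.2 and 16.8 CPM in Dll1- and 13, 15.9, 28.7 and 14 CPM in Dll1+ libraries. Psmb9 was thus higher in Dll1+ cells of both GFP mice. In mouse 3 it was near level, at -0.026 on the log2 scale, and in mouse 4 lower, at -0.26. Over the 4 mice its log2 fold change was 0.062 ± 0.12 (adjusted p = 0.74), and without mouse 2 it was -0.03.

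Nlrc5, the transactivator that drives the other class I genes, was the member that stood lower in Dll1+ cells. It was at 12.8, 8.6, 14.2 and 6.41 CPM in the Dll1- libraries of mice 1 to 4 and at 9.63, 6.33, 15.7 and 4.82 CPM in the Dll1+ libraries. The within-mouse log2 differences were -0.41, -0.44 and -0.41 in mice 1, 2 and 4 and 0.14 in mouse 3. The fitted log2 fold change was -0.27 ± 0.13, with an interval of -0.60 to 0.052 and an adjusted p of 0.214. Across the 8 libraries Nlrc5 followed the other members least: its Pearson correlation with the mean of the other 9 (each scaled to a mean of 0 and an SD of 1 on log2 CPM) was 0.44, while those of the others ran from 0.85 for Tap2 and Tapbp to 0.98 for H2-D1. These correlations describe 8 libraries that come in pairs from 4 mice.

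**Figure D2:**
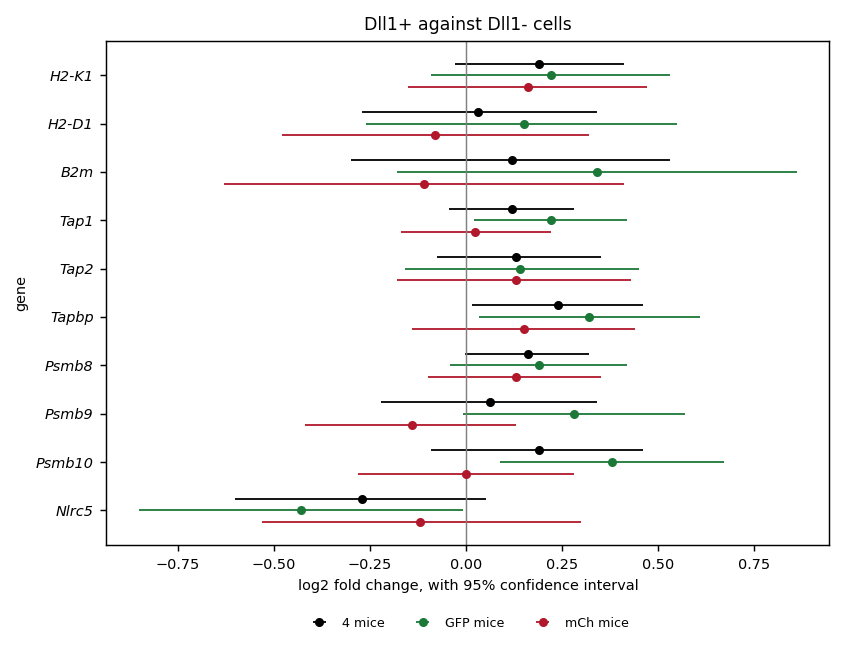
Log2 fold change of Dll1+ against Dll1- cells (x axis) for the 10 genes (y axis), over 4 mice in black, in GFP mice in green and in mCh mice in red. Points are edgeR estimates and bars 95% confidence intervals, which include 0 for every gene over 4 mice except Tapbp.

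Within each reporter the picture was split. In GFP mice 9 of 10 members had a positive log2 fold change, with a median of 0.22, and 0 of 10 were called (edgeR) where 9.13% of all tested genes were. At an unadjusted p under 0.05 there were 4 members, beside 4900 of the 18322 tested genes. They were Psmb10 at 0.38 ± 0.12 (adjusted p = 0.108), Tapbp at 0.32 ± 0.12 (adjusted p = 0.15), Tap1 at 0.22 ± 0.082 (adjusted p = 0.155) and Nlrc5 at -0.43 ± 0.17 (adjusted p = 0.181). DESeq2 called 0 of 10, beside 13.3% of the genes it gave an adjusted p. With the 4 GFP libraries fitted alone, 2 members were called, B2m at 0.35 (adjusted p = 0.045) and Tapbp at 0.33 (adjusted p = 0.0426), where 13.1% of all genes were called. The same 2 were called when mouse 3 was left out of the shared fit, Tapbp alone when mouse 4 was left out, and Psmb10 alone without the filter on low counts, at 0.39 (adjusted p = 0.0211). These 3 fits called 13.3%, 12.6% and 8.62% of all genes.

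In mCh mice the members centred on 0. The median log2 fold change was 0.012, 6 of 10 were positive, and 0 of 10 were called (edgeR) where 11.8% of all tested genes were. None had an unadjusted p under 0.05, beside 5539 of the 18322 tested genes. DESeq2 called 0 of 10, beside 15.6% of the genes it gave an adjusted p. The values ran from -0.14 ± 0.11 for Psmb9 to 0.16 ± 0.13 for H2-K1. Mice 3 and 4 pulled them apart. With mouse 4 left out, B2m in the mCh effect was 0.27 and H2-D1 was 0.19, against -0.11 and -0.082 with both mice.

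The test of the difference between the reporters (GFP effect minus mCh effect) called 0 of 10 members in edgeR, beside 0.071% of all tested genes. DESeq2 called 0 of 10, beside 3.27% of the genes it gave an adjusted p. At an unadjusted p under 0.05 there was 1 member, Psmb9, beside 2420 of the 18322 tested genes. Its difference was 0.42 ± 0.16 (interval 0.022 to 0.82, adjusted p = 0.356). B2m had the largest difference at 0.45 ± 0.29 (interval -0.28 to 1.18, adjusted p = 0.587). Without mouse 3, which leaves mouse 4 as the mCh pair, the B2m difference was 0.89 and passed the threshold (adjusted p = 0.0327). These intervals allow a difference between the reporters of more than 1.5-fold for B2m and Psmb9.

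Between the reporters, the median log2 fold change of the 10 members (mCh against GFP) was 0.54 in Dll1- and 0.46 in Dll1+ cells, beside 0.01 and 0.066 over all tested genes. In Dll1- cells both mCh libraries were above both GFP libraries for 9 of 10 members, all but Nlrc5, a pattern of 35.7% of all tested genes. At an adjusted p under 0.05, 2 of 10 members were called, both higher in mCh mice, where 36.6% of all tested genes were called. Reporter line, tumor and any batch cannot be told apart in this comparison. B2m was at 192 ± 21.7 CPM (SD, n = 2) in GFP and 469 ± 70.4 CPM (SD, n = 2) in mCh Dll1- libraries, which is 2.43-fold or 1.28 ± 0.34 on the log2 scale (SE, adjusted p = 0.0262, edgeR). Psmb10 was at 25.3 ± 0.406 CPM and 45.3 ± 7.69 CPM (SD, n = 2 each), a log2 fold change of 0.85 ± 0.24 (SE) with an adjusted p of 0.0318 (edgeR). Without the filter on low counts B2m lost its call (1.34, adjusted p = 0.128). Psmb9, at 0.96 ± 0.39 (adjusted p = 0.0944), and Psmb8, at 0.73 ± 0.27 (adjusted p = 0.0739), were next, and Nlrc5 was at -0.042 ± 0.61.

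How many members passed in Dll1- cells depended on the mouse. Mouse 3 was the highest of the 4 mice for all 10 genes in Dll1+ cells and for 9 of 10, all but Tap2, in Dll1- cells. The share of all tested genes with this pattern was not counted, and the members moved together, so both counts are a description. Without mouse 4, which leaves mouse 3 as the mCh mouse, 8 members were called, beside 42.6% of all genes in that fit. Without mouse 3 it was 5 members, beside 38.7% of all genes, and without mouse 1 or without mouse 2 it was 0, where the fit called 0 of all genes. DESeq2 called 4 members and 39% of the genes it gave an adjusted p. The markers of other cells moved with this comparison. In mCh Dll1- libraries the 15 pan-leukocyte and macrophage markers all rose against GFP mice (15 of 15 called), as did 8 of 8 tested MHC class II genes, 9 of 9 endothelial and 12 of 12 fibroblast and pericyte markers, and the class II invariant chain Cd74 was at 49 and 54.6 CPM in GFP and 412 and 398 CPM in mCh Dll1- libraries. Of all tested genes 18.7% rose between these libraries (edgeR). Leukocytes, endothelial cells and fibroblasts also express class I genes, and the part of these cells in the levels of B2m and Psmb10 was not tested.

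In Dll1+ cells 3 of 10 members (B2m, Tap2 and Psmb8) had both mCh libraries above both GFP libraries, beside 36.8% of all tested genes, and 0 of 10 were called by edgeR, where 30.6% of all tested genes were. At an unadjusted p under 0.05 there were 2 members, beside 8083 of the 18322 tested genes. They were B2m at 0.94 ± 0.34 (adjusted p = 0.0753) and Psmb8 at 0.70 ± 0.27 (adjusted p = 0.0902). DESeq2 called 2 members, beside 34.1% of the genes it gave an adjusted p. The members of mouse 4 lay near those of the GFP mice here. H2-K1 was at 667 CPM in mouse 4 against 676 and 789 CPM in the GFP mice, and Tap1 at 52.9 against 57.6 and 59.9 CPM. Without mouse 4, 9 of 10 members were called, beside 37.5% of all genes in that fit, and without mouse 3, 0 were, beside 35.7%. Psmb9, B2m and Psmb8 were at 28.7, 638 and 121 CPM in mouse 3 and at 14, 293 and 69.9 CPM in mouse 4.

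**Figure D3:**
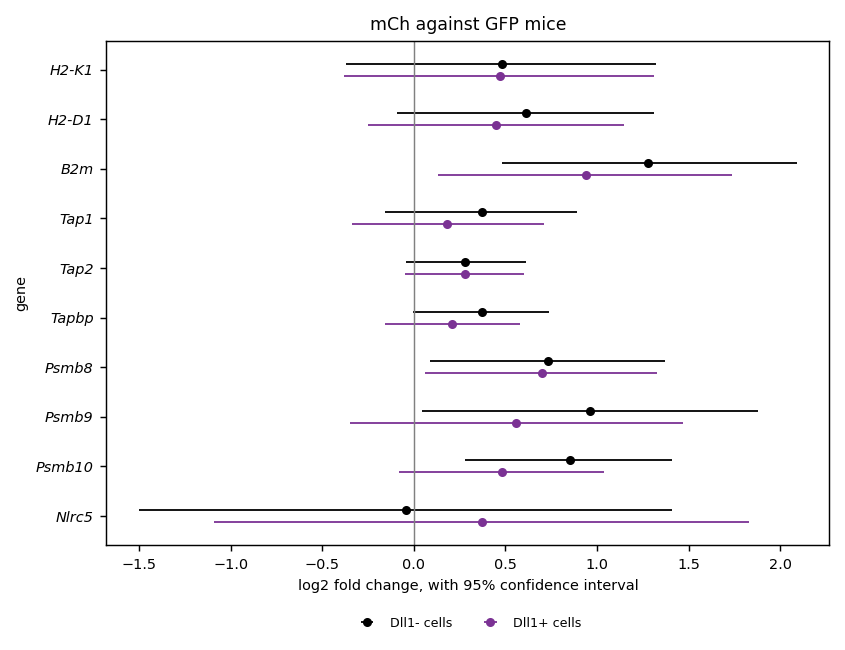
Log2 fold change of mCh against GFP mice (x axis) for the 10 genes (y axis) in Dll1- cells (black) and Dll1+ cells (purple). Points are edgeR estimates and bars 95% confidence intervals, and in Dll1- cells B2m (1.28) and Psmb10 (0.85) passed the threshold.

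In mCh mice the summed markers of other cells were lower in Dll1+ cells of both mice, though not each marker (Acta2 was at 191 and 496 CPM in mouse 3), while B2m was higher in mouse 3 and lower in mouse 4. From Dll1- to Dll1+ cells the summed leukocyte and macrophage markers went from 706 to 317 CPM in mouse 3 and from 736 to 324 CPM in mouse 4, and the class II genes from 758 to 404 CPM and from 729 to 327 CPM. Over the same pairs B2m went from 518 to 638 CPM in mouse 3 and from 419 to 293 CPM in mouse 4. The fibroblast and pericyte markers differed between the mice, from 8094 to 3563 CPM in mouse 3 and from 22189 to 3490.1 CPM in mouse 4. In GFP mice these sums were 1122 and 1068 CPM in mouse 1 and 1257 and 1186 CPM in mouse 2. The part of stromal RNA in the mouse 4 values was not tested.

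The constitutive subunits Psmb5 and Psmb7 and the assembly chaperone Pomp fell in Dll1+ cells, where no immunoproteasome subunit was called. The list held 7 genes, for constitutive catalytic subunits, for assembly and for activators. Of these genes 3 fell over the 4 mice and 0 rose. They were Pomp, the assembly chaperone, at a log2 fold change of -0.33 (adjusted p = 0.0338), Psmb5 at -0.32 (adjusted p = 0.0407) and Psmb7 at -0.25 (adjusted p = 0.0438). Psmb6 was at 0.02 (adjusted p = 0.847). The list's median was -0.23, and 7.04% of all tested genes fell.

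Per kilobase, Psmb8 stood at 0.489, 0.564, 0.619 and 0.501 of Psmb5 in the Dll1- libraries of mice 1 to 4 and at 0.82, 0.698, 0.976 and 0.572 in the Dll1+ libraries. The ratio was higher in Dll1+ cells of all 4 mice, by 0.48 ± 0.27 on the log2 scale (SD, n = 4). Psmb10 against Psmb7 was higher in 3 of 4 mice, by 0.44 ± 0.34 (SD, n = 4), and level in mouse 4 at -0.028. Psmb9 against Psmb6 differed by 0.045 ± 0.24 (SD, n = 4) and was higher in 3 of 4 mice. These differences are given as a description, and no test was run on them, since an exact two-sided sign-flip test over 4 mice gives at least 0.125. In every library the constitutive subunit was the higher of each pair, and Psmb9 reached at most 0.100 of Psmb6.

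**Figure D4:**
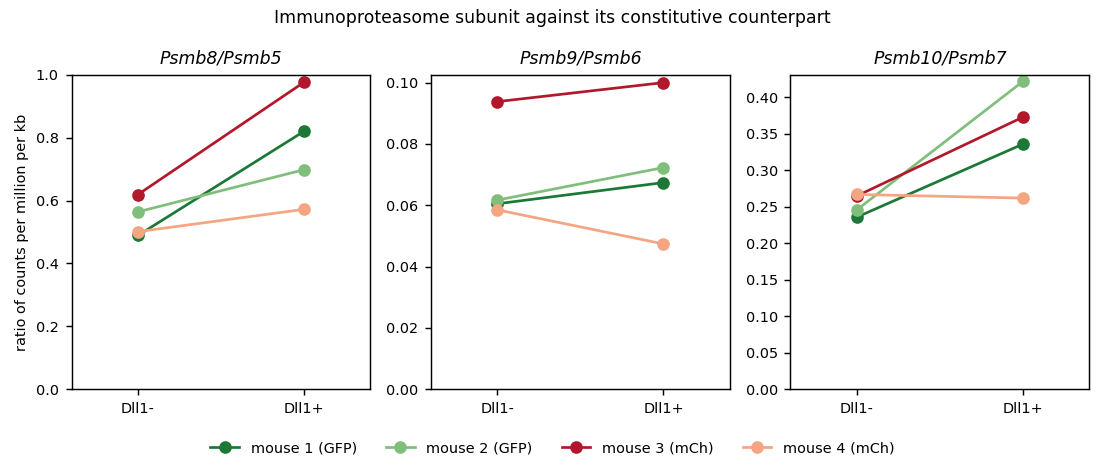
Ratio of each immunoproteasome subunit to its constitutive counterpart, in CPM per kilobase (y axis, from 0, a scale of its own for each pair), in Dll1- and Dll1+ libraries (x axis), with a line for each mouse. The Psmb8 to Psmb5 ratio goes up in all 4 mice, and the 4 differences average 0.48 on the log2 scale.

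Other class I heavy chains were called in part. Of 22 listed genes 21 were in the table and 19 tested, and 3 rose over the 4 mice (6.98% of all tested genes rose) with 0 falling, at a list median of 0.22. Mr1, which presents vitamin B metabolites to mucosal-associated T cells, was at 28.8, 26.9, 28.1 and 24.4 CPM in Dll1- and 42.7, 46.4, 41.5 and 30.7 CPM in Dll1+ libraries, without overlap. Its log2 fold change was 0.56 (adjusted p = 0.0142). H2-Q2 (0.56, adjusted p = 0.0322) and H2-K2 (0.54, adjusted p = 0.0497) also rose, at 10.1 to 18.5 CPM and 2.74 to 7.27 CPM in all libraries. Reads of H2-Q2 and H2-K2 may be shared with near-identical heavy chain genes. In the shared fit of all 8 libraries Mr1 rose in each reporter, by 0.68 in GFP mice (adjusted p = 0.016) and 0.45 in mCh mice (adjusted p = 0.043).

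Of 10 chaperones, translocation channel subunits and peptide trimming enzymes, 1 rose and 1 fell over the 4 mice, beside 6.98% and 7.04% of all tested genes. Lnpep, which trims peptides for cross-presentation and is also the insulin-regulated aminopeptidase, rose by 0.59 (adjusted p = 0.0149), and Sec61b, a subunit of the protein translocation channel, fell by 0.42 (adjusted p = 0.0182). Canx, the chaperone calnexin, was at 0.14 (adjusted p = 0.206), and the list's median was -0.084.

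Among 28 regulators of class I genes, 1 rose and 2 fell over the 4 mice, with a median of 0.031, beside 6.98% of all tested genes that rose and 7.04% that fell. Ciita, the transactivator of class II genes and a relative of Nlrc5, was at 8.43, 8.01, 7.62 and 7.1 CPM in Dll1- and 4.46, 4.03, 4.18 and 4.28 CPM in Dll1+ libraries. The groups did not overlap, and the log2 fold change was -0.88 (adjusted p = 0.0113). Ptpn2, a phosphatase that dampens interferon signaling, rose by 0.62 (adjusted p = 0.0126), and Ezh2, the methyltransferase of repressed chromatin, fell by 0.36 (adjusted p = 0.0439). Irf1, an activator of class I promoters, was chosen for mention once its values were known. It was at 209, 249, 190 and 169 CPM in Dll1- and 394, 498, 222 and 211 CPM in Dll1+ libraries, and its log2 fold change over 4 mice was 0.62 (adjusted p = 0.0543). Irf1 rose in GFP mice by 0.96 (adjusted p = 0.00389). In mCh mice it was at 0.27 (adjusted p = 0.0887). The test between both effects gave 0.69 (adjusted p = 0.105).

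Type I interferon-induced antiviral genes had the most calls over the 4 mice of the lists tested. Of 23 tested genes 10 rose and 0 fell over the 4 mice, at a median log2 fold change of 0.52, and all 23 were above 0. Of all tested genes 6.98% rose. Ifi44 was at 19.8, 19.7, 17.5 and 11 CPM in Dll1- and 39.6, 41.6, 33.7 and 21.3 CPM in Dll1+ libraries, a log2 fold change of 1.0 (adjusted p = 0.00534). All Dll1+ libraries were above all Dll1- libraries. Ifit1, which binds viral RNA, rose by 0.79 (adjusted p = 0.0074) and Irf7, the regulator of type I interferon genes, by 1.0 (adjusted p = 0.00932). In GFP mice 14 of the 23 rose and in mCh mice 7, with medians of 0.68 and 0.30, where 4.29% and 5.51% of all tested genes rose. The test of the difference called 0 of 23 in edgeR, with 11 at an unadjusted p under 0.05. Of all 18322 tested genes it called 0.071%, with 2420 at an unadjusted p under 0.05.

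Interferon-induced GTPases, many of them induced by interferon gamma, had 0 of 16 genes called over the 4 mice in edgeR, with 4 at an unadjusted p under 0.05 and a median of 0.17. Of all 18322 tested genes 14% were called, and 5936 had an unadjusted p under 0.05. By p the first were Gvin1 at -1.44 (adjusted p = 0.0661), Gbp3 at 0.58 (adjusted p = 0.108) and Igtp at 0.45 (adjusted p = 0.118). In GFP mice 1 of 16 rose, Gbp3 at 0.96 (adjusted p = 0.0181), with a list median of 0.44, and in mCh mice the list median was -0.11 with 0 called. Of all tested genes 4.29% rose in GFP mice and 11.8% were called in mCh mice. Like most class I members, Gbp3 and Igtp stood higher in Dll1+ cells of mice 1, 2 and 3 and lower in mouse 4, at -0.088 and -0.037.

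Of 8 tested MHC class II genes, 5 fell in mCh mice and 1, H2-DMb1, rose in GFP mice, by 1.09 (adjusted p = 0.0149, named once its values were known). Of all tested genes 6.25% fell in mCh mice and 4.29% rose in GFP mice. H2-Ab1 fell in mCh mice by 1.05 (adjusted p = 0.00707), H2-Aa by 1.06 (adjusted p = 0.01) and H2-Ob by 1.56 (adjusted p = 0.0438). In GFP mice H2-Ab1 was at -0.0091 (adjusted p = 0.969) and H2-Aa at 0.039 (adjusted p = 0.888). Of the leukocyte and macrophage markers 14 of 15 fell in mCh mice and 0 of 15 were called in GFP mice (edgeR, 1 at an unadjusted p under 0.05). The test of the difference between the reporters called 0 of 8 class II genes (edgeR, 8 at an unadjusted p under 0.05) and 1 of 15 leukocyte markers, Lyz2. It called 0.071% of all tested genes. At an unadjusted p under 0.05 there were 2420 of the 18322 tested genes in that test and 4900 in GFP mice. The part of leukocyte RNA in the class II values was not tested.

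**Figure D5:**
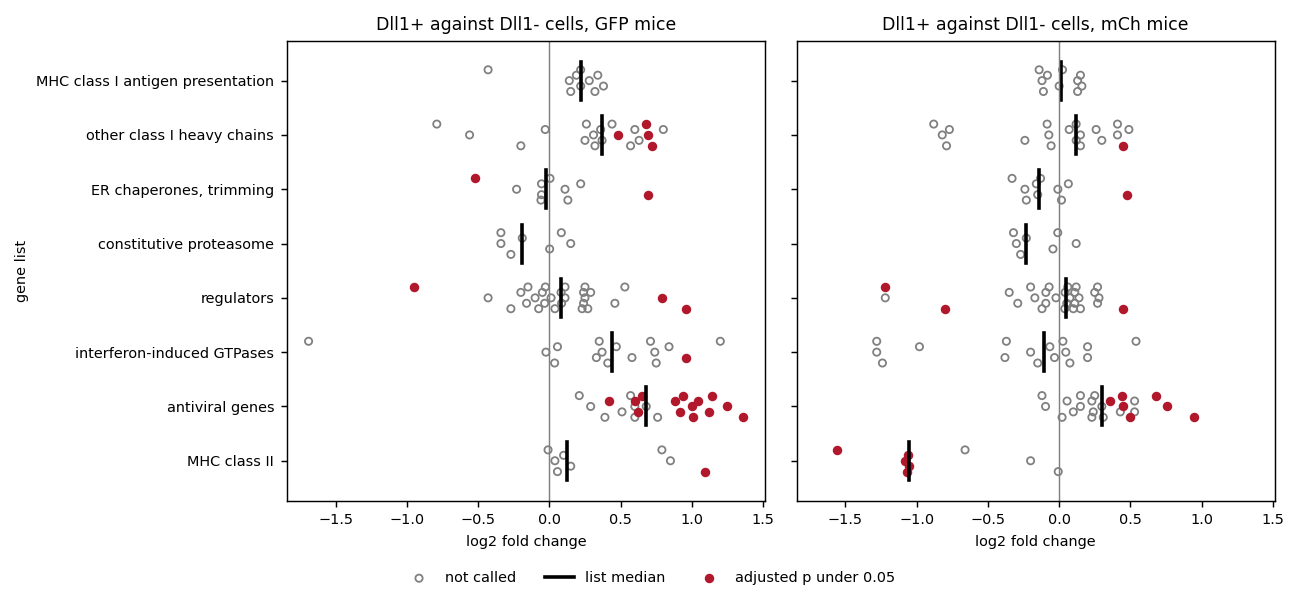
Log2 fold change of Dll1+ against Dll1- cells (x axis) for the genes of 8 lists (y axis) in GFP mice (left) and mCh mice (right). Each circle is a gene, filled where its adjusted p was under 0.05 (edgeR), and black bars are list medians, which for the class I members are 0.22 and 0.012.

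The genes whose log2 CPM over the 8 libraries was most like the members' mean pattern were Tomm6os (Pearson r = 0.976), 1810021B22Rik (0.974), H2-T23 (0.971), Pcif1 (0.968) and Rgs2 (0.964). These are the highest values among all tested genes outside the members, over libraries that come in pairs from 4 mice, so they are a description. Tomm6os was low, at 0.312 to 0.702 CPM. H2-T23 encodes Qa-1, a non-classical class I heavy chain that presents leader peptides of the classical ones. It was at 164, 162, 290 and 188 CPM in Dll1- and 191, 213, 332 and 201 CPM in Dll1+ libraries, higher in Dll1+ cells of all 4 mice. The log2 fold change of H2-T23 was 0.23 (adjusted p = 0.0799).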

How the data were processed

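RNA was sequenced from 8 libraries of sorted mammary tumor cells, 1 Dll1- and 1 Dll1+ library from each of 4 mice. The authors mapped reads with salmon to GENCODE M20 transcripts (GRCm38.p6 per the labels) and summed them to genes with tximport, and the deposited values are estimated counts per gene, whole numbers without normalization. The kit is stranded, and whether strand was used in mapping is not given in the sources used here. Symbols and positions came from a GENCODE annotation of GRCm38. Columns of no sample numbered 0.

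The test was that of edgeR 4.0.16, run in R 4.3.3 (TMM, filterByExpr on Dll1 status, robust quasi-likelihood F test, Benjamini-Hochberg over 18322 genes, threshold 0.05). The model over 4 mice had terms for the mouse and for Dll1 status, as in the study's methods. A second held a Dll1 effect per reporter. Levels between reporters came from a 4-group model without the mouse, since each mouse carried a single reporter. That model takes the libraries of a mouse as independent. Log2 CPM of a library were computed with 2 as prior count, and intervals are at 95%. The pairs come from the mouse named in the labels. Deviations from group means correlated between the libraries of a mouse at -0.047 in GFP and 0.55 in mCh mice. With 2 mice per reporter, p-values rest on a small spread between mice, and the count of 3 that sets the lowest level covers counting error only.

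The members and lists were chosen with earlier results of these data known. The 10 members are named in every comparison, with Dll1, the 3 genes of each list with the lowest p over the 4 mice, list genes called in the difference between reporters, Psmb5, Psmb6 and Psmb7, marker genes (Ptprc, Pecam1, Col1a1, Cd74 and Epcam) and the 5 genes most like the members. Genes outside this rule are said to be. A gene that the rule would name is not reported here. Alternatives were RLE size factors, DESeq2 1.42.0, other filters, no mouse block or a mouse block as a random effect (limma 3.58.1), 4 libraries fitted alone, and each mouse left out. The code was tested on simulated counts with 200 changed genes.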

Additional observations from a re-analysis of the deposited data

Results flagged for a closer look

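Several values stood apart by Dixon's test, which chance alone meets in about 1 in 20 groups. It was applied 31 times and met 6 times. The groups draw on the same mice and on genes that moved together, so they are not independent, and the count is a description. Among the 4 Dll1- libraries H2-K1 was far higher in mouse 3, at 1077 CPM, and among the 4 Dll1+ libraries H2-D1 at 1332 CPM and B2m at 638 CPM were far higher in mouse 3. Among the 4 within-mouse log2 differences, that of Tapbp in mouse 4, at -0.069, and that of Nlrc5 in mouse 3, at 0.14, stood apart from the other mice. The total of the mouse 3 Dll1- library, 123907626 counts, stood apart from the other 7 libraries.

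Psmb9 was higher in Dll1+ cells of both GFP mice and lower in those of mouse 4, at -0.26 on the log2 scale. In mouse 3 it was near level, at -0.026. The GFP effect minus the mCh effect was 0.42 on the log2 scale, and its test missed the threshold (edgeR, adjusted p = 0.356).

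Among the listed genes, 4 markers differed in their Dll1+ effect between the reporters (GFP effect minus mCh effect, edgeR). They were the macrophage gene Lyz2 at 1.25 (adjusted p = 0.0356) and the pericyte genes Rgs5 at 3.10 (adjusted p = 0.0233), Kcnj8 at 2.41 (adjusted p = 0.0377) and Abcc9 at 2.76 (adjusted p = 0.0356). All 4 fell in mCh mice, Rgs5 from 249.8 to 34.5 CPM in mouse 3 and from 294 to 35.6 CPM in mouse 4, and none was called in GFP mice.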

How the results depend on the processing

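Of 10 members, those called between Dll1- and Dll1+ cells numbered 0 over the 4 mice, in each reporter and in the difference between reporters, also with RLE size factors, with DESeq2 and with at least 10 counts in every library. In GFP mice it was 1 without the filter on low counts and 2 with 4 libraries fitted alone. Between reporters, DESeq2 called 4 in Dll1- and 2 in Dll1+ cells in place of 2 and 0. Without the mouse as a replicate block the counts were 0 over the 4 mice, in both reporters and in the difference, where over the 4 mice and in the difference that fit called 0 of all genes, and with the mouse as a random block in limma they were 2 in Dll1- and 0 in Dll1+ cells between reporters. The fit of the 4 mCh libraries alone called 0 of all genes, so its 0 says nothing of the members.

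Leaving out 1 mouse at a time, members called numbered 0 to 2 over the 4 mice, 0 to 2 in GFP mice, 0 in mCh mice, 0 to 1 in the difference between reporters, 0 to 8 between reporters in Dll1- cells and 0 to 9 in Dll1+ cells. Some of these fits called few or none of all genes. Those were the fits without mouse 1 or mouse 2, for GFP mice, for the difference and for levels between reporters. A lack of called members in them says nothing of the members. Over the 4 mice, the fits without mouse 1, 2 or 3 called a smaller share of all genes than the full fit. A fit without 1 mouse takes the lone pair of its reporter to vary like the others. Over the 4 mice the log2 fold change then ran from -0.041 to 0.17 for H2-D1 and from -0.03 to 0.17 for Psmb9. In mCh mice, the lower value coming from mouse 4 and the higher from mouse 3, it ran from -0.033 to 0.3 for H2-K1, -0.41 to 0.19 for H2-D1, -0.54 to 0.27 for B2m, -0.09 to 0.084 for Tap1, -0.12 to 0.31 for Tap2, -0.09 to 0.34 for Tapbp, -0.044 to 0.24 for Psmb8, -0.17 to 0.11 for Psmb10 and -0.43 to 0.12 for Nlrc5. The difference between reporters ran from -0.075 to 0.26 for H2-K1, -0.039 to 0.56 for H2-D1, -0.16 to 0.27 for Tap2, -0.011 to 0.42 for Tapbp, -0.045 to 0.24 for Psmb8 and -0.53 to 0.015 for Nlrc5. Between reporters it ran from -0.74 to 0.46 for Nlrc5 in Dll1- cells, and in Dll1+ cells from -0.17 to 0.9 for H2-K1, -0.14 to 0.85 for H2-D1, -0.19 to 0.46 for Tap1, -0.066 to 0.42 for Tapbp, -0.08 to 0.99 for Psmb9 and -0.76 to 0.99 for Nlrc5.

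Psmb10 in mCh mice, at 0.00046, was -0.014 with RLE size factors, -0.015 with DESeq2, -0.02 without the filter, -0.00063 with at least 10 counts in every library and -0.018 with the 4 libraries fitted alone. Nlrc5 between reporters in Dll1- cells, at -0.042, was 0.023 without the filter and 0.062 with the random block. B2m between reporters in Dll1- cells was 1.34 (adjusted p = 0.128) without the filter. The cause of these changes was not tested. Depth did not limit the members, which had 194 to 142532 counts per library, but with 2 mice per reporter the intervals are wide.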

Other observations

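Markers of other cells differed by status in ways not described above. Among 10 epithelial markers the basal keratin Krt5 rose over the 4 mice, from 13.2, 6.17, 20.9 and 30.8 CPM in Dll1- to 70.1, 27.9, 243 and 219 CPM in Dll1+ libraries, a log2 fold change of 2.77 (adjusted p = 0.0073, edgeR). Krt14, its partner, was at 1.55 (adjusted p = 0.0533) and Epcam at 0.30 (adjusted p = 0.0622). Other epithelial markers, named once their values were known, were below 0, with Krt19 at -0.42 (adjusted p = 0.128), Cldn4 at -0.31 (adjusted p = 0.133) and Cdh1 at -0.11 (adjusted p = 0.555), and in GFP mice Krt19 fell by 0.72 (adjusted p = 0.0195). Of the endothelial markers 0 of 9 were called over the 4 mice (edgeR, 0 at an unadjusted p under 0.05), with Vwf at -0.98 (adjusted p = 0.176), Tek at -0.84 (adjusted p = 0.274) and Pecam1 at -0.70 (adjusted p = 0.281), and 4 of 9 fell in mCh mice. Of the fibroblast and pericyte markers 0 of 12 were called over the 4 mice (1 at an unadjusted p under 0.05), with Cspg4 at -1.34 (adjusted p = 0.086), Pdgfrb at -1.46 (adjusted p = 0.159), Acta2 at 0.84 (adjusted p = 0.169) and Col1a1 at -0.93 (adjusted p = 0.228), and 8 of 12 fell in mCh mice. Of all tested genes 14% were called over the 4 mice and 6.25% fell in mCh mice. Over the 4 mice 5936 of the 18322 tested genes had an unadjusted p under 0.05 (edgeR). Of the leukocyte and macrophage markers 0 of 15 were called over the 4 mice (2 at an unadjusted p under 0.05), with Fcer1g at -0.63 (adjusted p = 0.126), Adgre1 at -0.66 (adjusted p = 0.154) and Itgam at -0.71 (adjusted p = 0.164). Lymphocyte markers summed to 0.832 to 10.5 CPM, and 7 of 12 passed the filter. Cd79a was at -1.06 (adjusted p = 0.0753) and Gzmb at -0.75 (adjusted p = 0.215).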
